A study of Mus musculus with 6 samples.

Results

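The transcripts described here are those of the mouse mitochondrial genome (chrM), measured in melanoma tumors from mice given Rigosertib (RGS) or vehicle. They were chosen by position: every row of the deposited gene count table on chrM was taken, which gave 33 of 40166 rows. These are 13 mRNA genes, 2 rRNA genes and 18 tRNA genes. The GENCODE M21 annotation lists 37 genes on chrM, and the other 4, the tRNA genes *mt-Tf*, *mt-Ts1*, *mt-Td* and *mt-Tk*, were not analysed here. All 33 rows had the same start and end in the table and in that annotation of the GRCm38 build.

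Bulk RNA was sequenced from 6 tumor samples of YUMM3.3, a single BRAF-mutant mouse melanoma line, grown under the skin of C57BL/6 mice. The 3 vehicle samples (replicates 7, 8 and 9) came from mice given water by gavage. The 3 RGS samples (replicates 10, 11 and 12) came from mice given 300 mg/kg RGS, a small-molecule RAS mimetic, 5 days a week. The labels do not name the mice, and each sample is taken here as a separate tumor. All 6 tumors were taken after 17 days of treatment. Age and sex are not given by sample in the labels. The comparison asks how the tumor transcriptome differed after RGS.

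The mitochondrial genome is a small circle that is transcribed on both strands into long precursor RNAs. Most of the mRNAs and the rRNAs lie on one strand and are separated by tRNAs, at which the precursors are cut. The encoded proteins are subunits of respiratory complexes I, III, IV and V, while all other subunits, the polymerase POLRMT, its partners TFAM and TFB2M, and the mitochondrial ribosomal proteins come from nuclear genes.

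The deposited totals ran from 22793087 to 32555494 counts with vehicle and from 13837932 to 21617368 with RGS, so each vehicle library was deeper than each RGS library, and depth and treatment cannot be told apart over the groups. Cytosolic ribosomal protein genes took between 5.83% and 10.6% of the nuclear counts with vehicle and between 3.38% and 4.05% with RGS. Replicates of a group differed by far more than counting error, with chi-square values per degree of freedom of 18.5 to 127, so no library was a copy of another. Of the 10 melanoma markers listed, *Tyr*, *Dct* and *Mlana*, melanocyte genes, had 0 counts in all 6 tumors, while *Gpnmb* and *Mitf* were detected. The list summed to between 300 and 377 with vehicle and between 282 and 306 with RGS (nuclear CPM, a unit described further on). Of its 4 tested genes, *Gpnmb* fell by 0.41 and *Mcam* rose by 0.46 on the log2 scale. Both calls were lost without vehicle replicate 8 or any single RGS tumor. *Ptprc*, the CD45 gene of leukocytes, *Cd3e* of T cells and the 4 hemoglobin genes listed also had 0 counts in all 6 tumors. Whole tumor tissue holds blood and leukocytes, so these zeros are unexplained, and their cause was not tested. *Mrps23* of the mitochondrial ribosome also had 0 counts in all 6 tumors. So did the row of *Uqcrc1* of complex III, but this row lies on the separate scaffold KQ030490.1 and its zeros may not stand for the gene. The samples are called tumors here only as the labels do. Of 16 leukocyte markers, 10 had at most 3 counts in any tumor. The summed level of the list lay between 63.6 and 68 nuclear CPM with vehicle and between 70.2 and 93 with RGS, nearly all of it *Cd68*. Of the 7 erythroid markers listed, 6 had 0 counts in all 6 tumors. The 1 tested was called higher, with overlapping groups, and the list summed to 0 with vehicle and to between 0 and 0.774 with RGS. Skeletal muscle and adipocyte markers summed to between 7.45 and 13.7 and between 7.1 and 12.6 with vehicle, and to between 4.36 and 9.04 and between 7.11 and 15.7 with RGS. The keratinocyte markers summed to at most 1.82 with vehicle and to between 7.16 and 24.3 with RGS. Of the 10 listed, 7 had at most 3 counts in any tumor, and of the 2 tested only 1 was called higher. Among them *Ivl*, which encodes involucrin and was singled out after its values were seen, had 0 counts in the 3 vehicle tumors and 6.21, 11.8 and 20.7 nuclear CPM with RGS. Fibroblast and endothelial markers summed to between 418 and 604 with vehicle and between 304 and 347 with RGS, without overlap. Of its 8 tested genes, *Cdh5* and *Dcn* rose, by 3.48 and 3.24 on the log2 scale, and *Col3a1*, *Col1a2* and *Pdgfra* fell by 0.90, 0.73 and 0.70. The part of these markers in the results was not tested. In bulk tissue, fewer cells of a type and less RNA per cell cannot be told apart.

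Mitochondrial transcripts took a larger share of the counts in every RGS tumor than in every vehicle tumor. The share of all counts on chrM was 2.13%, 2.23% and 3.20% in the vehicle tumors and 5.60%, 7.25% and 8.22% in the RGS tumors. The widest 95% Wilson interval of these shares, for RGS replicate 11, ran from 7.235% to 7.263%, so counting error was far smaller than the spread between tumors. Set against the nuclear counts alone, chrM had 0.0218, 0.0229 and 0.0331 counts per nuclear count with vehicle and 0.0593, 0.0782 and 0.0896 with RGS. The mean log2 ratio differed by 1.55, a 2.93-fold difference, with p = 0.1 in a two-sided exact permutation test, the smallest p that 3 against 3 tumors allow. With *mt-Co1*, the most counted gene, left out, the difference was 1.95, or 3.87-fold, and with the cytosolic ribosomal protein genes left out of the nuclear total it was 2.79-fold. The libraries nearest in depth, vehicle replicate 9 with 22793087 counts and RGS replicate 10 with 21617368, had 3.20% and 5.60%. The values are shares of a library, so more mitochondrial RNA and less nuclear RNA cannot be told apart.

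For single genes, levels are given as nuclear CPM, the counts scaled to 1000000 nuclear counts with TMM factors from nuclear genes. A floor of 3 counts in one library equalled 0.0887 to 0.234 of these units. Of the 33 genes, 23 passed the filter, which asks that the median count of 1 group or the other reach 5: 12 mRNA, 2 rRNA and 9 tRNA genes. The filter let a gene pass through its higher group alone, so these 23 do not stand for all 33. By edgeR's quasi-likelihood test, adjusted over all 15355 tested genes, 15 of the 23 were higher with RGS and 0 were lower. Over all tested genes, 16.3% were called higher and 16.5% lower, and the median log2 fold change was -0.05, against 1.70 for the 23. The RGS tumors lay above the vehicle tumors without overlap for 20 of the 23. The tRNA genes *mt-Tn*, *mt-Ty*, *mt-Th*, *mt-Ts2* and *mt-Tl2* passed the filter only through the RGS group, so nothing is read from values that include them. The 12 tested mRNA genes, which reached the filter in both groups, had a median of 1.69. For all 12 the RGS tumors lay above the vehicle tumors without overlap, where 21.8% of all tested genes did so. The count of 15 ranged from 13 to 17 over the alternative settings and left-out tumors, and no mitochondrial gene was called lower in any of them. The lowest log2 fold change of the tested mRNA and rRNA genes was 1.12, and 0 mitochondrial genes were lower at an unadjusted p under 0.05 (edgeR). Without the filter, 30 mitochondrial genes were tested, with 15 called higher, 0 called lower and a lowest log2 fold change of -2.92. DESeq2 called 15 higher and 0 lower.

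**Figure D1:**
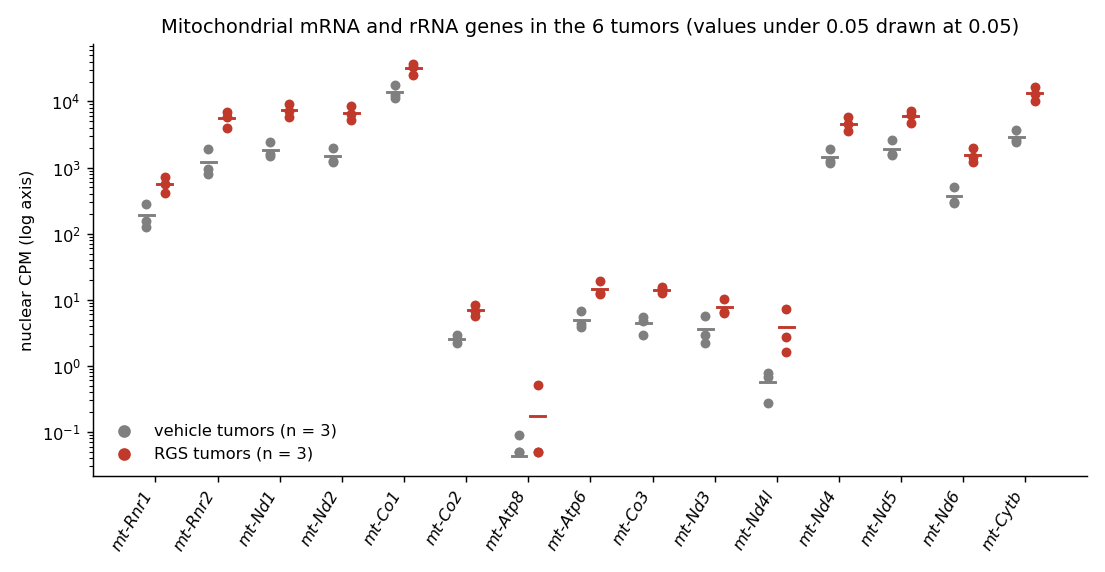
Levels of the 13 mRNA and 2 rRNA genes of chrM in map order, in nuclear CPM on a log axis, with 1 point per tumor and a bar at each group mean. The RGS points lie above the vehicle points for all genes but *mt-Atp8*, and 6 genes from *mt-Co2* to *mt-Nd4l* sit under 20 while the others sit above 100.

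**Figure D2:**
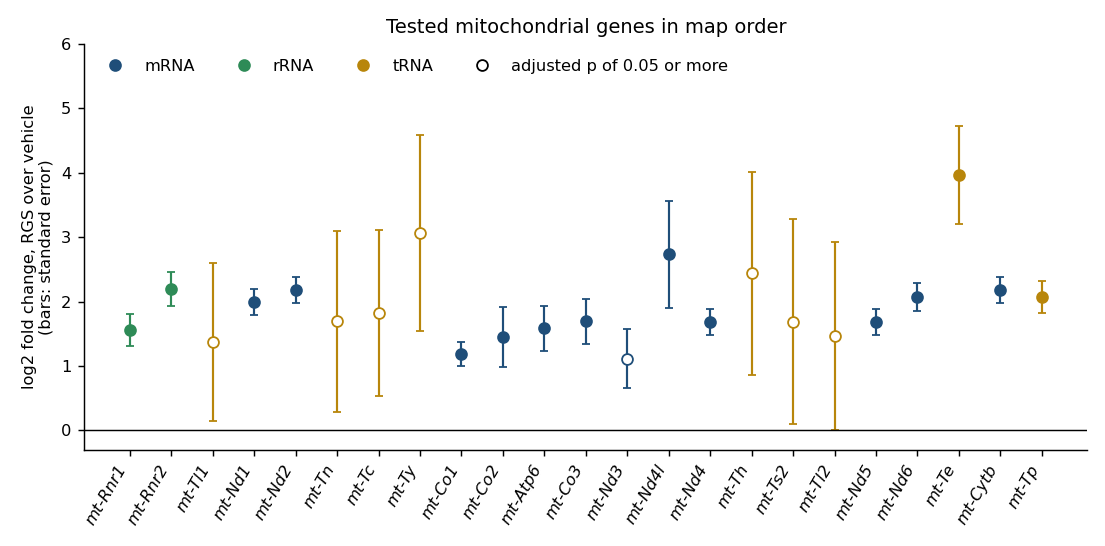
Log2 fold change of RGS over vehicle for the 23 tested mitochondrial genes in map order, with standard errors. Filled points have an adjusted p under 0.05, and the largest filled value is 3.96 for *mt-Te*.

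Both rRNA genes were higher with RGS. *mt-Rnr2*, the large rRNA (chrM:1094-2675), was at 802, 965 and 1888 in the vehicle tumors and 4021, 5750 and 6959 in the RGS tumors. *mt-Rnr1*, the small rRNA (chrM:70-1024), was at 127, 158 and 284 with vehicle and 408, 561 and 714 with RGS. The groups did not overlap for either gene. The log2 fold change was 2.19 ± 0.26 (SE; adjusted p = 5.29e-06, edgeR) for *mt-Rnr2* and 1.56 ± 0.25 (adjusted p = 1.05e-04, edgeR) for *mt-Rnr1*. The ratio of the rRNAs, which come from a shared precursor, also differed between the groups. Counts on *mt-Rnr1* over counts on *mt-Rnr2* were 0.159, 0.163 and 0.151 with vehicle and 0.101, 0.0975 and 0.103 with RGS, without overlap (log2 difference -0.65, exact permutation p = 0.1, two-sided, the smallest possible).

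The complex I genes *mt-Nd1*, *mt-Nd2*, *mt-Nd4*, *mt-Nd5* and *mt-Nd6*, which encode membrane subunits of NADH dehydrogenase, were all higher with RGS. *mt-Nd1* (chrM:2751-3707) was at 1485, 1620 and 2399 with vehicle and 5731, 7120 and 9152 with RGS. *mt-Nd2* (chrM:3914-4951) was at 1207, 1265 and 1971 with vehicle and 5261, 6501 and 8388 with RGS. No RGS tumor came near a vehicle tumor for these genes, and the log2 fold changes were 2.0 ± 0.20 and 2.18 ± 0.21 (SE). *mt-Nd4* (chrM:10167-11544) was at 1177, 1254 and 1875 with vehicle and 3551, 4481 and 5788 with RGS. *mt-Nd5* (chrM:11742-13565) was at 1530, 1611 and 2588 with vehicle and 4791, 6297 and 7253 with RGS. Here too the groups did not overlap, and the log2 fold changes were 1.68 ± 0.20 for both (SE). For all 5 genes, vehicle replicate 9 was the highest vehicle tumor and RGS replicate 12 the highest RGS tumor.

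*mt-Nd6* (chrM:13552-14070) is the only mRNA gene on the other strand. It was at 290, 302 and 506 with vehicle and 1192, 1441 and 1980 with RGS, again without overlap. Its log2 fold change was 2.07 ± 0.22 (SE; edgeR). Whether the reads were counted by strand is not given in the sources used here, so RNA of the opposite strand over this gene cannot be told apart from it, and 14 of its bases overlap *mt-Nd5*.

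*mt-Cytb* (chrM:14145-15288), the cytochrome b subunit of complex III, had the smallest p of the mitochondrial genes. It was at 2453, 2569 and 3735 with vehicle and 10290, 12940 and 16560 with RGS. The lowest RGS tumor thus stood well above the highest vehicle tumor, with a log2 fold change of 2.18 ± 0.20 (SE; adjusted p = 2.11e-07, edgeR).

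*mt-Co1* (chrM:5328-6872), the catalytic subunit of complex IV, was the most counted mitochondrial gene in all 6 tumors. It was at 11430, 12640 and 17990 with vehicle and 25210, 32980 and 37320 with RGS. Every RGS tumor lay above every vehicle tumor, and its log2 fold change was the smallest of the 15 called genes, at 1.183 ± 0.19 (SE; adjusted p = 9.16e-05, edgeR). Per kilobase of gene, it stood at 9076 with vehicle, above *mt-Cytb* at 2551 and *mt-Nd1* at 1917, and at 20610 with RGS, above *mt-Cytb* at 11590 and *mt-Nd1* at 7664 (mean nuclear CPM per kb). Part of *mt-Co1* has a nuclear copy, described further on, whose effect on these levels was not tested.

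Another 5 mRNA genes had few counts, and for each of them nearly the whole sequence is found a second time in the nuclear annotation. They are *mt-Co2* and *mt-Co3* of complex IV, *mt-Atp6* of complex V, and *mt-Nd3* and *mt-Nd4l* of complex I. A single tumor had between 6 and 299 counts on any of them, whereas *mt-Rnr1*, the least counted of the other genes apart from *mt-Atp8*, had between 4185 and 11068. On chromosome 1, between 24611535 and 24616197 (GRCm38), the annotation lists 7 unprocessed pseudogenes in the order and near the spacing of the mitochondrial genes. The gap from *Gm29216* to *Gm28661* is 140 bases, as from *mt-Co1* to *mt-Co2*, and that from *Gm28661* to *Gm10925* is 233 bases, as between the matching stretches of *mt-Co2* and *mt-Atp6*. *Gm28661* matches 681 of the 684 bases of *mt-Co2* without a difference. The first 90 bases of both, from the GENCODE M21 transcripts and written in the direction of transcription, are shown because a read of these letters has at least 2 places of origin (another nuclear transcript, *Gm13341*, also holds 150-base windows of *mt-Co2*):
mt-Co2: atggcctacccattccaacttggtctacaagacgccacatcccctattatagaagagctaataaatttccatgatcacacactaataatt
Gm28661: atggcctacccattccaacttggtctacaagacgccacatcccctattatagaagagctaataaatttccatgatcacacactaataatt

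The other pairs were as close. *Gm10925* matches 678 of 681 bases of *mt-Atp6*, *Gm28437* matches 783 of 784 bases of *mt-Co3*, *Gm28438* matches 342 of 348 bases of *mt-Nd3* and *Gm10222* matches 294 of 297 bases of *mt-Nd4l*, all with 0 differing bases. *Gm28439* matches the first 876 of the 1378 bases of *mt-Nd4*. *Gm29216* matches the last 483 of the 1545 bases of *mt-Co1* with 1 difference, A1066T, counted from the first base of *mt-Co1* and giving its base first. The 90 bases at the start of that stretch, with the differing base in capitals, show how little tells them apart:
mt-Co1: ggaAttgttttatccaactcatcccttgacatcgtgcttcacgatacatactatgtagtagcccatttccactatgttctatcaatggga
Gm29216: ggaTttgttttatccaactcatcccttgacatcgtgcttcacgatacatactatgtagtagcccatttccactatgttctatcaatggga

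Of all 150-base windows, the length of a read, the share found exactly in a nuclear transcript was 97.0% to 99.8% for the 5 genes with few counts, 59.2% for *mt-Nd4*, 23.6% for *mt-Co1* and 0% for the other 8 mRNA and rRNA genes. Per kilobase, the 5 genes stood between 1.93 and 10.3 with vehicle and between 10.2 and 22.2 with RGS (mean nuclear CPM per kb). Reads that fit a gene and its copy equally cannot be told apart, and how the counting treated them is not given in the sources used here. The levels of these 5 genes therefore cannot be set against those of the others. Those of *mt-Nd4* and *mt-Co1*, which are copied in part, may be affected by an unknown amount.

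**Figure D3:**
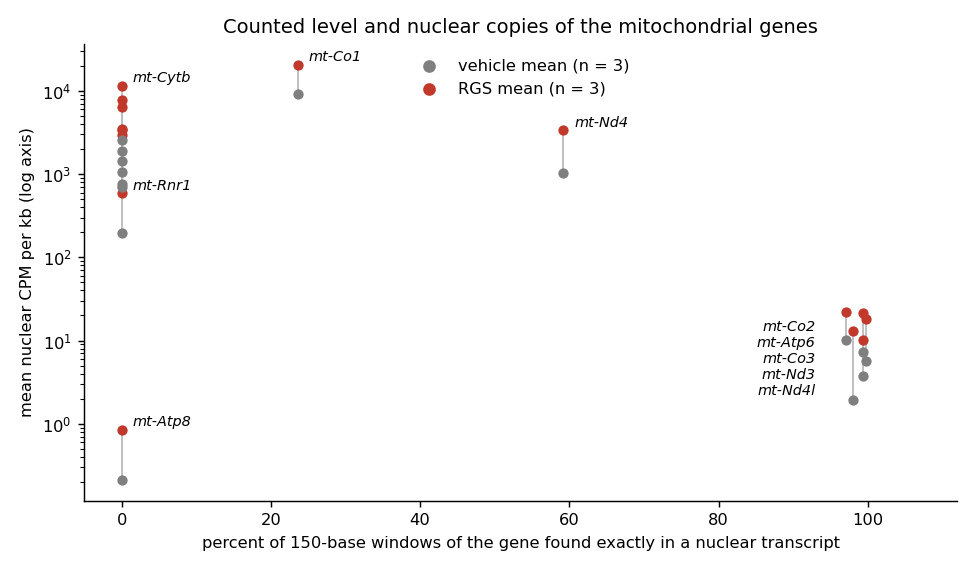
Mean nuclear CPM per kilobase (log axis) for the 15 mRNA and rRNA genes against the percent of their 150-base windows found exactly in a nuclear transcript, with a line from the vehicle mean to the RGS mean of each gene. The 5 genes at 97.0% or more lie at 22.2 or below in both groups, and *mt-Atp8*, at 0%, is lower still.

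Within these limits, the same direction was seen. *mt-Co2* (chrM:7013-7696) was at 2.19, 2.90 and 2.56 with vehicle and 6.76, 5.69 and 8.46 with RGS. *mt-Co3* (chrM:8607-9390) was at 2.96, 4.82 and 5.43 with vehicle and 12.7, 15.7 and 14.3 with RGS. *mt-Atp6* (chrM:7927-8607) was at 4.26, 3.80 and 6.66 with vehicle and 12.1, 12.8 and 19.3 with RGS. None of these 3 genes had overlapping groups, and all 3 rose by the test, with log2 fold changes of 1.45 ± 0.46, 1.69 ± 0.35 and 1.59 ± 0.35 (SE). The call for *mt-Co2* had an adjusted p of 0.0214 by edgeR and was lost without vehicle replicate 7, vehicle replicate 8 or RGS replicate 12.

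*mt-Nd4l* (chrM:9877-10173) was at 0.769, 0.678 and 0.274 with vehicle and 2.702, 1.64 and 7.29 with RGS. RGS replicate 12 stood far above the other RGS tumors, and the call, at a log2 fold change of 2.73 ± 0.83 (SE; adjusted p = 0.017, edgeR), was lost without it at a value of 1.90. Of its bases, 7 also belong to *mt-Nd4*. *mt-Nd3* (chrM:9459-9806) was at 2.93, 2.18 and 5.61 with vehicle and 6.31, 6.55 and 10.3 with RGS, so its groups did not overlap but RGS replicate 10 was close to vehicle replicate 9. Its log2 fold change of 1.12 ± 0.46 (SE) did not pass the test (adjusted p = 0.0718, edgeR), while it passed at 1.59 without vehicle replicate 9.

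Most of the pseudogene rows on chromosome 1 also had higher counts with RGS. *Gm10925* was at 8.99, 11.7 and 14.9 with vehicle and 26.6, 31.5 and 28.7 with RGS, without overlap. Of the 7 pseudogenes, 5 were higher by the test (71.4%, against 16.3% of all tested genes) and 2 had no call, *Gm10222* and *Gm28438*, and the log2 fold changes of all 7 lay between 1.29 and 1.63. The call for *Gm29216* was lost without any single vehicle tumor, RGS replicate 11 or RGS replicate 12. Reads of the matching stretches fit the mitochondrial genes equally or nearly so. RNA of the pseudogenes and mitochondrial RNA therefore cannot be told apart in these counts. They are on nuclear rows and are not part of the mitochondrial share given above.

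*mt-Atp8* (chrM:7766-7969), a small complex V subunit, was counted 0, 1 and 2 times with vehicle and 0, 0 and 8 times with RGS, and it did not pass the filter. Both groups were at or near the floor of 3 counts apart from RGS replicate 12, so a difference was not detectable. Its last 43 bases are also the first 43 of *mt-Atp6*, and a read within this stretch belongs to both genes:
mt-Atp8/mt-Atp6 overlap: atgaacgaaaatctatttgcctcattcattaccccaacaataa
No nuclear transcript in the annotation holds a 150-base window of *mt-Atp8*, although most of its length corresponds to the gap of 233 bases between the pseudogenes of *mt-Co2* and *mt-Atp6*. The genome sequence of that gap was not used here.

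The tRNA genes are shorter than a read, and most had almost no counts. Of the 18, 3 had 0 counts in all 6 tumors, another 6 failed the filter with at most 7 counts in any tumor, and 9 were tested. Of the 9, 2 were higher with RGS (22.2%, near the 16.3% of all tested genes), *mt-Te* and *mt-Tp*, which carry glutamate and proline. They lie on the same strand as *mt-Nd6*, as do *mt-Tn*, *mt-Tc* and *mt-Ty*, which were tested and had no call. The sequences of *mt-Te* and *mt-Tp*, shown as the only tRNA genes with a call, are:
mt-Te: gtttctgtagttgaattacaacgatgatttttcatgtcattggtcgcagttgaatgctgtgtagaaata
mt-Tp: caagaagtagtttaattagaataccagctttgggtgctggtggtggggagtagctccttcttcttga

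*mt-Tp* (chrM:15356-15422, 67 bases) was the most counted tRNA gene, with 342, 404 and 438 counts with vehicle and 969, 773 and 1254 with RGS. In nuclear CPM this was 10.1, 15.2 and 19.98 against 48.5, 60.3 and 80.9, without overlap, and the log2 fold change was 2.07 ± 0.25 (SE; edgeR). It is the last annotated gene before the control region of the circle, and it adjoins *mt-Tt*, which had 1 count in RGS replicate 12 and 0 in the other tumors. *mt-Te* (chrM:14071-14139, 69 bases) had 8, 6 and 12 counts with vehicle and 66, 46 and 137 with RGS. Every RGS tumor stood above every vehicle tumor, at 3.30, 3.59 and 8.84 against 0.237, 0.226 and 0.548 nuclear CPM. Its log2 fold change was 3.96 ± 0.76 (SE; adjusted p = 6.04e-04, edgeR). It has 0 bases between it and *mt-Nd6* and 5 between it and *mt-Cytb*, both of which had at least 8020 counts in every tumor, and the deposited counts do not separate tRNA from precursor reads.

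The other 7 tested tRNA genes, *mt-Tl1*, *mt-Tn*, *mt-Tc*, *mt-Ty*, *mt-Th*, *mt-Ts2* and *mt-Tl2*, had at most 34 counts in a tumor. None passed the test (adjusted p from 0.133 to 0.479, edgeR), with log2 fold changes from 1.37 to 3.06, and the groups did not overlap for 4 of them, among all tested genes for 21.8%. Since *mt-Tn*, *mt-Ty* and *mt-Th* passed the filter only through the RGS group, nothing is read from that count. *mt-Th* had at most 2 counts in any vehicle tumor, so its fitted fold is no bound. At these counts a difference of the size seen in the mRNAs was not detectable. *mt-Ty*, the nearest, had 4, 3 and 0 counts with vehicle and 12, 12 and 9 with RGS.

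The make-up of the mitochondrial mRNA counts also differed between the groups. The shares are those of the deposited counts, not of the RNA itself. The 5 copied genes with few counts add almost nothing to the sum, and parts of *mt-Co1* and *mt-Nd4* also have nuclear copies. *mt-Co1* took 58.4%, 59.4% and 57.9% of the counts on the 13 mRNA genes in the vehicle tumors and 45.0%, 45.9% and 43.1% in the RGS tumors. *mt-Cytb* took 12.5%, 12.1% and 12% with vehicle and 18.3%, 18.0% and 19.1% with RGS. *mt-Nd2* took 6.16%, 5.95% and 6.34% with vehicle and 9.38%, 9.05% and 9.70% with RGS. The tumors of a group agreed closely in these shares, and the gap between the groups was several times the spread within them. *mt-Nd1* went from 7.64% ± 0.07 to 10.2% ± 0.33 and *mt-Nd6* from 1.51% ± 0.11 to 2.14% ± 0.14 (SD, n = 3 each). *mt-Nd4* went from 5.98% ± 0.07 to 6.42% ± 0.24, and *mt-Nd5* from 7.90% ± 0.39 to 8.57% ± 0.19 (SD, n = 3 each).

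Of the 15 mRNA and rRNA genes, each expressed as a percent of the mRNA counts, 8 had groups that did not overlap, *mt-Co1* lower with RGS and *mt-Rnr2*, *mt-Nd1*, *mt-Nd2*, *mt-Nd4*, *mt-Nd5*, *mt-Nd6* and *mt-Cytb* higher. Over single genes scaled to nuclear counts, 21.8% of all tested genes did not overlap in the higher and 24.0% in the lower direction, a background on another scale. Each of the 8 had p = 0.1 in a two-sided exact permutation test, the smallest possible, and 0.188 after Benjamini-Hochberg adjustment over the 15, so none passed. As shares of one sum, a lower share of *mt-Co1* raises the others. With *mt-Co1* left out of the sum, *mt-Nd4* and *mt-Nd5* turned to lower with RGS, at log2 differences of -0.31 and -0.30, *mt-Cytb* and *mt-Nd2* stayed higher at 0.18 and 0.19, and *mt-Nd1* overlapped at 0.01. Relative to the geometric mean of the 13 genes, *mt-Co1*, *mt-Nd1*, *mt-Nd2*, *mt-Nd6* and *mt-Cytb*, 5 genes, had groups that did not overlap. That mean gives *mt-Atp8*, with at most 8 counts in a tumor, and the copied genes with few counts the same weight as the others. It therefore cannot decide which shares differ apart from *mt-Co1*.

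**Figure D4:**
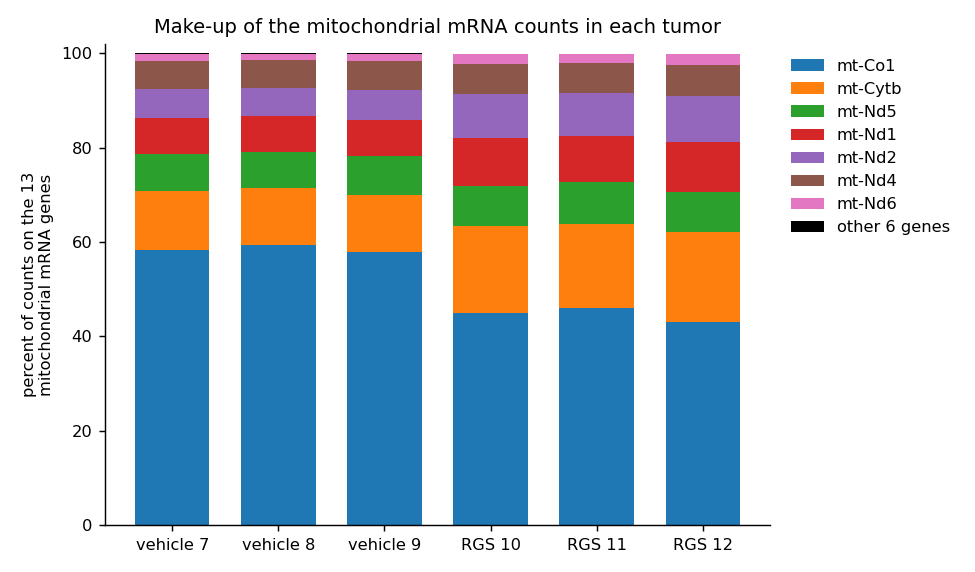
Percent of the counts on the 13 mitochondrial mRNA genes taken by each gene, as stacked bars from 0 to 100, 1 bar per tumor. The bottom block, *mt-Co1*, is at 57.9% or more in the 3 vehicle tumors and at 45.9% or less in the 3 RGS tumors, and the 6 genes drawn together at the top are too few in counts to be seen.

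Ratios between the kinds of mitochondrial RNA depended on *mt-Co1* in the same way. The counts on both rRNA genes over those on the mRNA genes were 0.0474, 0.0527 and 0.0699 with vehicle and 0.0790, 0.0879 and 0.0887 with RGS (log2 difference 0.61, exact permutation p = 0.1, two-sided). Without *mt-Co1* in the mRNA sum the groups overlapped, with a log2 difference of 0.19. The ratio of *mt-Nd6* to the mRNA counts of the other strand was 0.0150, 0.0144 and 0.0165 with vehicle and 0.0217, 0.0205 and 0.0234 with RGS, a log2 difference of 0.51 that fell to 0.09 with overlapping groups once *mt-Co1* was left out. Against the geometric mean of those genes, in which *mt-Co1* weighs no more than any other, the groups did not overlap, at 6.34, 5.58 and 6.82 with vehicle and 8.48, 9.02 and 7.17 with RGS (log2 difference 0.40, exact permutation p = 0.1, two-sided). That mean weighs *mt-Atp8*, with at most 8 counts in a tumor, and the copied genes with few counts as much as the others. It therefore cannot decide whether the separation holds without *mt-Co1*. The direction was the same in each form, while the separation of the groups depended on the reference.

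Few of the nuclear genes that build the respiratory complexes together with the mitochondrial ones were higher with RGS. Of 74 tested rows of nuclear OXPHOS subunit genes, 3 were higher (4.05%, against 16.3% of all tested genes) and 11 were lower (14.9%, against 16.5%), with a median log2 fold change of -0.06. Their summed level lay between 5160 and 7970 with vehicle and between 5400 and 6840 with RGS (nuclear CPM), so the groups overlapped. Both rows of *Atp5a1*, 1 of them on a patch scaffold, and the row of *Uqcrc1*, also on a separate scaffold, had at most 1 count in any tumor and were not tested. These rows thus add almost nothing to this sum or to the OXPHOS ratio given further on, whatever the level of the genes themselves. *Sdha*, the flavoprotein of complex II, which has no mitochondrially encoded subunit, was at 169, 132 and 123 with vehicle and 223, 214 and 235 with RGS, and rose by 0.67 ± 0.16 (log2, SE; adjusted p = 0.00347, edgeR). *Cox8a* of complex IV and *Atp5d* of complex V also rose, by log2 values of 0.65 and 0.47. The call for *Cox8a* was lost without vehicle replicate 8 or RGS replicate 12, and that for *Atp5d* without TMM and without vehicle replicate 8, vehicle replicate 9, RGS replicate 11 or RGS replicate 12. *Cox7a2l*, a factor of supercomplex assembly, was at 261, 362 and 390 with vehicle and 149, 166 and 188 with RGS, and fell by 1.0104 on the log2 scale. *Atp5c1* and *Atp5g2* of complex V and *Sdhd* of complex II fell by 0.88, 0.74 and 0.71. Under the other settings the 3 higher calls ranged from 0 to 8 and the 11 lower calls from 2 to 23.

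The counts of mitochondrial mRNA per count of nuclear OXPHOS mRNA were 3.80, 3.04 and 3.90 in the vehicle tumors and 10.4, 12.3 and 12.7 in the RGS tumors. The groups lay far apart, at a 3.3-fold ratio (exact permutation p = 0.1, two-sided, the smallest possible), and at 4.4-fold without *mt-Co1*. This ratio does not use the nuclear total as its scale.

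**Figure D5:**
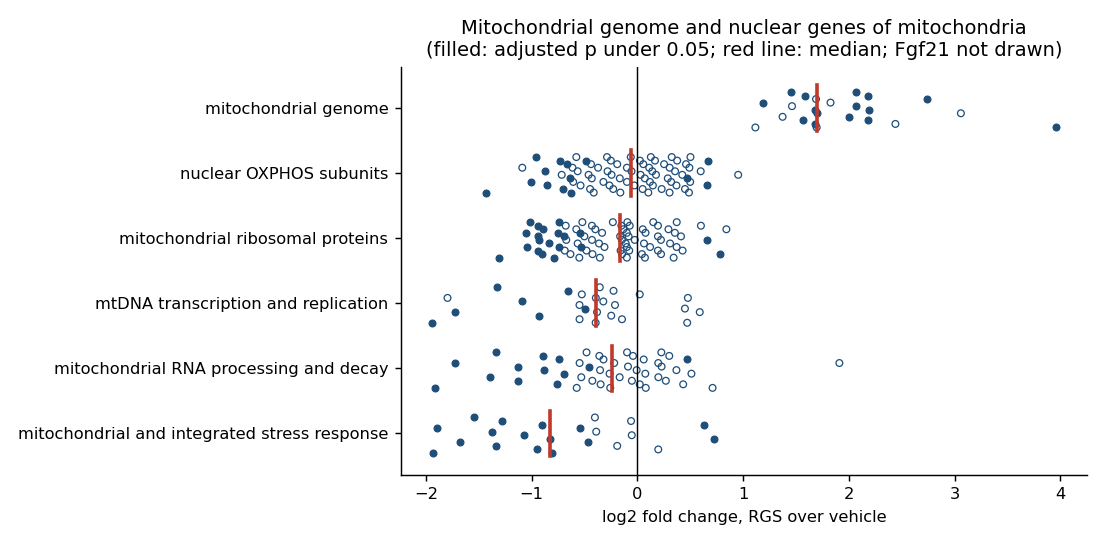
Log2 fold change of RGS over vehicle for the tested genes of chrM and of 5 nuclear gene lists, 1 point per gene, filled where the adjusted p was under 0.05, with a red line at each median. The mitochondrial genes all lie above 0 with a median of 1.70, and the medians of the 5 nuclear lists lie between -0.83 and -0.06. Some of the mitochondrial tRNA genes passed the filter only through the RGS group.

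More nuclear genes for mitochondrial DNA transcription and replication were lower than higher. Of 25 tested, 0 were higher by edgeR's adjusted p (1 at an unadjusted p under 0.05, *Top3a*, a topoisomerase gene named after its value was seen, and 0 by DESeq2, but 2 by voom), against 16.3% of all genes, and 7 were lower (28%, against 16.5%), with a median log2 fold change of -0.39. *Polrmt*, the mitochondrial RNA polymerase, was at 39.7, 36.0 and 32.1 with vehicle and 39.9, 35.8 and 33.8 with RGS, a log2 difference of 0.02 ± 0.19 (SE) whose sign changed with the scaling. *Tfam*, which packages mitochondrial DNA and starts its transcription, was at 53.4, 52.8 and 63.4 with vehicle and 41.0, 39.0 and 39.9 with RGS, and fell by 0.50 ± 0.17 (log2, SE; adjusted p = 0.0351, edgeR). That call was lost without vehicle replicate 8, vehicle replicate 9 or any single RGS tumor. *Tfb2m*, which opens the promoter, fell by 0.65, a call lost without vehicle replicate 8, vehicle replicate 9 or RGS replicate 12. *Tefm*, the elongation factor, fell by 1.33 with 11.2, 11.4 and 17.8 against 5.26, 4.52 and 6.20.

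Among the called genes of the list, the largest decreases were those of *Slc25a33*, a pyrimidine nucleotide carrier of the inner membrane, and of *Tfb1m*, a methylase of the small rRNA. *Slc25a33* was at 31.4, 48.1 and 50.3 with vehicle and 14.7, 12.9 and 6.20 with RGS (log2 fold change -1.94 ± 0.29, SE). *Tfb1m* was at 4.55, 9.94 and 12 with vehicle and 3.10, 2.42 and 2.45 with RGS (log2 fold change -1.72 ± 0.46, SE). The call for *Tfb1m* was lost without vehicle replicate 9. *Primpol* fell by 1.10, a call lost without vehicle replicate 8. *Mterf3* (-0.40), *Mterf1a* (-0.36), *Twnk* (-0.25) and *Polg* (-0.23), which act in termination, attenuation and replication, did not pass the test. Under the other settings the 7 lower calls ranged from 4 to 10.

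Genes for mitochondrial RNA processing, modification and decay gave 1 higher and 12 lower of 46 tested (2.17% and 26.1%, against 16.3% and 16.5%), with a median log2 fold change of -0.24. *Pnpt1*, the exoribonuclease that degrades mitochondrial RNA with the helicase SUPV3L1, was at 61.2, 88.1 and 98.0 with vehicle and 31.8, 37.0 and 44.1 with RGS. All RGS tumors were below all vehicle tumors, and it fell by 1.13 ± 0.20 (log2, SE; adjusted p = 0.000282, edgeR). *Supv3l1* itself was at 20.4, 28.3 and 27.2 with vehicle and 23.0, 22.4 and 22.2 with RGS, a log2 difference of -0.17 ± 0.22 (SE) that did not pass. *Mettl15*, a methylase of the small rRNA, *Trnt1*, which adds CCA to tRNAs, and *Fastkd2*, which binds the large rRNA, fell by 1.91, 1.40 and 1.34. *Fastk*, whose mitochondrial form is needed for *mt-Nd6* mRNA, was the gene called higher, at 0.47 ± 0.17 (log2, SE; adjusted p = 0.0418, edgeR), a call that 2 scalings and 4 of the left-out tumors ended.

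The mRNA-stabilizing pair *Lrpprc* and *Slirp* gave log2 fold changes of 0.08 ± 0.17 and -0.53 ± 0.72 (SE), the poly(A) polymerase gene *Mtpap* gave -0.26 ± 0.20, the tRNA 3' processing gene *Elac2* gave 0.27 ± 0.23 and the RNA granule gene *Grsf1* gave 0.02 ± 0.15. None of these passed the test. Under the other settings the 12 lower calls ranged from 5 to 17. *Tfb1m* is in both of these lists.

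Mitochondrial ribosomal protein genes, whose products assemble on *mt-Rnr1* and *mt-Rnr2*, gave 2 higher and 18 lower of 76 tested (2.63% and 23.7%, against 16.3% and 16.5%), with a median log2 fold change of -0.16. *Mrpl13* was at 112.1, 202 and 254 with vehicle and 68.0, 72.8 and 87.7 with RGS, and fell by 1.31 ± 0.23 (log2, SE; adjusted p = 0.000219, edgeR). *Mrpl48*, *Mrpl30* and *Mrpl24* fell by 1.06, 1.013 and 0.94, while *Mrps12* and *Mrpl34* rose by 0.78 and 0.66. The call for *Mrps12* was lost without RGS replicate 11, and that for *Mrpl34* under 2 scalings and without vehicle replicate 7, vehicle replicate 8 or RGS replicate 12. In the vehicle tumors *Mrpl13* was lowest in replicate 7 and highest in replicate 9, as was the cytosolic ribosomal protein share, whose part in this value was not tested. The 18 lower calls ranged from 4 to 31 over the other settings.

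The listed genes of the mitochondrial and integrated stress response, some of which are induced by ATF4, were mostly lower with RGS. Of 23 tested, 15 were lower (65.2%, against 16.5%) and 2 higher (8.70%, against 16.3%), with a median log2 fold change of -0.83. *Trib3*, a pseudokinase induced by ATF4, was at 127, 145 and 118 with vehicle and 35.5, 32.5 and 33.8 with RGS, and fell by 1.94 ± 0.17 (log2, SE; adjusted p = 9.81e-08, edgeR). *Phgdh*, the first enzyme of serine synthesis, was at 744, 966 and 943 with vehicle and 220, 232 and 259 with RGS, and fell by 1.90 ± 0.16. *Chac1*, a glutathione-degrading enzyme, fell by 1.68. *Fgf21*, a secreted factor of this response, was at 1.57, 0.414 and 0.228 with vehicle and had 0 counts in the 3 RGS tumors. *Atf5*, a factor of the mitochondrial unfolded protein response, rose by 0.63 with 305, 284 and 279 against 413, 453 and 480, and *Oma1*, a protease of the inner membrane, rose by 0.72, a call lost without vehicle replicate 7 or RGS replicate 10. The 15 lower calls ranged from 9 to 16 over the other settings.

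Over the 8 nuclear lists together, 9 of 291 tested rows were higher (3.09%, against 16.3% of all tested genes) and 71 lower (24.4%, against 16.5%). The 71 became 46 without vehicle replicate 9 and 47 without RGS replicate 10, and the 9 became 14 without vehicle replicate 9 and 5 without vehicle replicate 8 or RGS replicate 12.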

How the data were processed

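Tumors were stored in RNAlater, and their RNA was sequenced as paired-end reads of 150 bases. The submitters' processing notes name cutadapt 1.18, FastQC 0.11.7, STAR 2.7.1a, featureCounts 1.6.4 and the mm10 build, and the authors deposited raw counts per gene, 1 column per tumor, without normalization. Strand setting, treatment of multiply mapped reads and library selection are not given in the sources used here.

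From these counts, each library was scaled to its nuclear total with TMM factors from nuclear genes (0.95 to 1.06; levels are nuclear CPM), and the groups were compared with edgeR 4.0.16 in R 4.3.3 (glmQLFit and glmQLFTest) over all 15355 genes whose median count reached 5 in either group, with Benjamini-Hochberg adjustment and a threshold of 0.05. The study names the filter, but the nuclear scaling was chosen here because mitochondrial counts differ several-fold. Standard errors are the log2 fold change divided by the root of its F statistic. Ratios and shares were compared by two-sided exact permutation tests over the 6 tumors, with 0.5 counts added before taking log2 shares. Totals ran from 13837932 to 32555494, and intervals and floors cover counting error only, since the reads carry no molecular identifiers. The labels call the samples of a group replicates without naming the mice, so p-values measure only the spread between these samples, which may in part be technical.

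Copies were sought by aligning the GENCODE M21 chrM transcripts to the 7 pseudogenes within 10 kb of *Gm10925* (Biopython 1.88), and by exact matches of 150-base windows to all other GENCODE M21 transcripts, on both strands. Named genes are all mRNA and rRNA genes of chrM, all tested tRNA genes, up to 4 genes in each direction of each nuclear list among those past the threshold whose groups do not overlap, and 17 fixed genes. The members and lists were chosen with earlier results of these data known. *Atp5a1* has 2 rows in the table, and *Ndufs3*, *Prorp*, *Pde12*, *Mtrfr* and *Mtres1* were not analysed here. Alternatives were DESeq2 1.42.0, limma 3.58.1 voom with quality weights, robust dispersions, other scalings and filters, other thresholds, thinned counts, each tumor left out, and, added after seeing the data, sums without *mt-Co1*. Only the edgeR fit was tried on simulated counts, with far fewer changed genes than were called here. The permutation tests, the shares and the search for copies were not simulated.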

Additional observations from a re-analysis of the deposited data

How the results depend on the processing

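No paired analysis was possible because the labels give the groups no shared replicate numbers. The 15 higher and 0 lower calls among mitochondrial genes stood at 13 to 16 and at 0 when single tumors were left out, and at 13 to 17 and 0 under the other settings, DESeq2 included (15). Over 466 pairs of a tested mitochondrial gene and an alternative, 0 changed direction, 6 lost their call (*mt-Co2* and *mt-Nd4l*) and 3 gained one (*mt-Ty* and *mt-Nd3* by voom, *mt-Nd3* without vehicle replicate 9). These pairs include the tRNA genes that passed the filter only through the RGS group, and nothing is read from the direction of those genes. Leaving out single tumors moved the log2 difference in the mitochondrial share from 1.55 to between 1.42 and 1.74, that of rRNA over mRNA from 0.61 to between 0.49 and 0.77, that of *mt-Nd6* over the other strand from 0.51 to between 0.46 and 0.57, and the count of genes with a shifted share from 8 to at most 9. Without *mt-Co1* the first 3 were 1.95, 0.19 and 0.0915, and the shares of *mt-Rnr1*, *mt-Atp6*, *mt-Nd4* and *mt-Nd5* turned to -0.39, -0.40, -0.31 and -0.30. The geometric mean gave 0.40 for *mt-Nd6* and 5 genes with a shifted share, but it weighs *mt-Atp8* and the copied genes with few counts as much as the others. Over all genes, 2501 higher and 2539 lower calls became 1615 and 1566 at an adjusted p under 0.01, 1165 and 1451 with a log2 fold change beyond 1 in size required, and between 1733 and 2608 and between 1760 and 2632 with single tumors left out. Over the nuclear lists, 9 higher and 71 lower calls became 3 and 38 at the stricter p and 0 and 30 at the fold limit, 15 higher by voom, and between 5 and 14 and between 46 and 97 with single tumors left out. Genes with no call changed sign near 0: *Polrmt* to -0.0511 without TMM and -0.0144 with upper-quartile factors, and *Grsf1* to -0.0497, -0.0121 and, with thinned counts, -0.0027. Left-out tumors moved *Polrmt* between -0.0622 and 0.0895, *Grsf1* between -0.0432 and 0.063, *Slirp* between -1.07 and 0.21, *Lrpprc* between -0.0307 and 0.16, *Ppargc1a* between -1.38 and 0.0238 and *Polg* between -0.38 and 0.0019. The cause was not tested. Low counts limit most tRNA genes and *mt-Atp8*.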

Other observations

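Of 16 tested mitochondrial translation factor genes, 4 were lower and 1 was higher (25% and 6.25%, against 16.5% and 16.3% of all tested genes). *Guf1*, an elongation factor of the LepA family, was at 21.0, 29.4 and 34.1 nuclear CPM with vehicle and 9.21, 12.2 and 12.9 with RGS, and fell by 1.30 ± 0.26 (log2, SE; adjusted p = 0.000757, edgeR). *Mrrf*, the ribosome recycling factor, and *Mtif2*, the initiation factor, fell by 1.15 and 0.65, while *Tufm*, the elongation factor that brings tRNAs to the ribosome, rose by 0.64. *Mtrf1*, a release factor, fell by 1.69 with 4.49, 10.1 and 5.84 against 0.851, 1.013 and 4.45, so RGS replicate 12 nearly reached the lowest vehicle tumor. The call for *Mtif2* was lost without vehicle replicate 8, vehicle replicate 9, RGS replicate 11 or RGS replicate 12, and that for *Mtrf1* without vehicle replicate 8, RGS replicate 10 or RGS replicate 11.

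Of 19 mitochondrial aminoacyl-tRNA synthetase genes, which charge the mitochondrial tRNAs, 2 were lower (10.5%, under the 16.5% of all tested genes), 0 were higher and 17 had no call, and 0 were higher also at an unadjusted p under 0.05 by edgeR and by DESeq2 and voom. *Mars2*, the methionine enzyme, was at 25.0, 37.2 and 36.9 with vehicle and 15.5, 9.90 and 8.58 with RGS (log2 fold change -1.54 ± 0.27, SE). *Hars2*, the histidine enzyme, fell by 0.68, a call lost without any single tumor but vehicle replicate 7 or RGS replicate 11. Among 14 tested regulators of mitochondrial content, 4 were lower (28.6%, against 16.5% of all tested genes) and 0 higher (against 16.3%) by edgeR, with 0 higher also at an unadjusted p under 0.05, by DESeq2 and by voom. *Myc* was at 357, 328 and 329 with vehicle and 134, 156 and 164 with RGS, a fall of 1.16 ± 0.15 (log2, SE; adjusted p = 1.2e-05, edgeR). *Gabpb1*, *Prkaa2* and *Sirt1* fell by 0.75, 1.37 and 0.70. The call for *Gabpb1* was lost without vehicle replicate 9, that for *Prkaa2* without any single tumor but RGS replicate 12, and that for *Sirt1* without vehicle replicate 7, vehicle replicate 8, RGS replicate 11 or RGS replicate 12. *Ppargc1a*, the coactivator PGC-1α, was at 2.16, 1.39 and 1.19 with vehicle and 2.05, 1.17 and 0.0645 with RGS, and *Nrf1* was at 38.8, 34.5 and 32.7 against 32.4, 29.8 and 34.98, and neither passed the test.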
